A study of Mus musculus with 6 samples.

Results

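S100 genes encode small calcium-binding proteins, most of which carry a pair of EF-hand calcium-binding loops and work as dimers. In this report 10 of them that are known from skin were followed in mouse skin RNA: S100a8, S100a9, S100a7l2, S100a4, S100a6, S100a10, S100a11, S100a13, S100a14 and S100a16. A probe set was taken when the platform annotation gave it 1 of these symbols and no other. That rule found 12 probe sets for 9 of the 10 genes, among 45037 probe sets and 18193 genes in all. The probe set of S100a11 carries 3 symbols, and S100a11 was not analysed here. S100a10 has 3 probe sets, S100a16 has 2, and each other gene has 1.

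Skin from 3 knock-in samples, with the genotype code KA, was compared with skin from 3 wild-type samples, all on a C57BL/6 background, with 1 Affymetrix array per sample. The labels leave the altered gene unnamed, and they give no treatment, age, sex or body site for either group. Nothing in the labels says that the samples came from separate animals, so p-values measure only the spread between these 6 arrays, which may be technical. In whole skin, fewer cells of a type and less RNA per cell cannot be told apart.

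Inside cells S100 proteins change shape when calcium binds and then dock onto partners such as annexins and myosin. S100a8 and S100a9 pair as calprotectin, which is abundant in neutrophils and monocytes, is made by keratinocytes of inflamed or wounded epidermis, withholds zinc and manganese from microbes, and acts outside cells on Toll-like receptor 4 and the receptor for advanced glycation end products. Several other members are made by resting epidermis or dermis.

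The groups stood apart on the whole. Over the 23153 brighter probe sets, which exceeded the median of the array on 3 or more of the 6 arrays, Pearson's r between arrays was 0.981 to 0.984 inside the knock-in group, 0.976 to 0.983 inside the wild-type group and 0.899 to 0.929 across the groups. Xist, the RNA of the inactive X chromosome, gave signals from 3442 to 4005 on knock-in arrays and from 27.8 to 32.5 on wild-type arrays. The Y-linked genes Eif2s3y, Kdm5d and Uty gave at most 7.15 on any knock-in array and at least 174 on any wild-type array, so sex and genotype cannot be told apart in any result here. Signals of the ribosomal RNA control probe sets also moved with the groups: the 5′ set of the 18S RNA gave 166 to 766 in knock-in and 1314 to 2286 in wild-type, and the middle set 410 to 919 in knock-in and 1009 to 1706 in wild-type, while the 3′ set overlapped. The part of this in the results was not tested. Skin markers were present on all 6 arrays. Krt5 and Krt14, keratins of basal keratinocytes, gave signals of at least 7480 and 9378 in knock-in and 5522 and 5905 in wild-type.

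The promoters of the 3 genes with the largest differences are shown first. RefSeq (GRCm38.p6) gave windows of 250 bases before and 50 bases from the annotated start for 7 of the 9 genes, all on chromosome 3. Capitals mark TATAAA, the TATA box, and TGANTCA, the site of AP-1 factors, each searched on both strands. The windows are chr3:90668821-90669120 on the plus strand for S100a8, chr3:90695672-90695971 on the minus strand for S100a9 and chr3:91090756-91091055 on the minus strand for S100a7l2, and each is written 5′ to 3′ on the strand of the gene.
S100a8: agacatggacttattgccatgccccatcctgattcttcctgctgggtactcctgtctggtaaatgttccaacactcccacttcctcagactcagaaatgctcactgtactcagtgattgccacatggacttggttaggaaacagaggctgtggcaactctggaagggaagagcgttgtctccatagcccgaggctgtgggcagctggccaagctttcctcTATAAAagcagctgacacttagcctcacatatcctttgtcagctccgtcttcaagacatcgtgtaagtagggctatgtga
S100a9: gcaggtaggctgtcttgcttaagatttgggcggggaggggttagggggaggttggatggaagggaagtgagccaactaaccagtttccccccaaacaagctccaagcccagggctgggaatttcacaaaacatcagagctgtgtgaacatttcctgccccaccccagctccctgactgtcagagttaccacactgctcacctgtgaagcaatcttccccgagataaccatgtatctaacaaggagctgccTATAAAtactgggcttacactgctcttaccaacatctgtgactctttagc
S100a7l2: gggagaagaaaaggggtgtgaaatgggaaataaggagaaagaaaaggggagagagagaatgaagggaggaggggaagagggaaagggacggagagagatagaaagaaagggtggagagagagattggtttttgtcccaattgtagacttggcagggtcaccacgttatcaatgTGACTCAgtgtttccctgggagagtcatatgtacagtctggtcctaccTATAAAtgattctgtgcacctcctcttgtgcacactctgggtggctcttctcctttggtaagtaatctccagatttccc
TATAAA begins 30 bases before the annotated start in S100a8, 29 bases before it in S100a7l2 and at the annotated start itself in S100a9. It also lies 31 bases before the start of S100a4, and was not found in the windows of S100a6, S100a13 and S100a16. In all, 4 of the 8 windows of these 7 genes held it, against 13.62% of all 32851 promoter windows. TGANTCA was found 77 bases before the start of S100a7l2 and in 1 of the 2 windows of S100a16, against 7.81% of all windows. A site of C/EBP factors, TTGCNNAA, was found 236 bases before the start of S100a9 and in no other member window, against 10.8% of all windows. The searched motifs did not overlap each other in these windows.

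Of the 12 probe sets, 4 were higher in knock-in, 1 was lower and 7 did not pass the test. Those 5 probe sets belong to S100a9, S100a8 and S100a10 (higher, 2 of the 3 probe sets of S100a10) and S100a7l2 (lower). Differences are knock-in minus wild-type means of log2(signal + 16), and the test was limma's moderated test with Benjamini-Hochberg adjustment over all 45037 probe sets at a threshold of 0.05. Of all probe sets, 13.8% passed that test, 6.01% higher and 7.81% lower in knock-in. Among the 23153 brighter probe sets, tested on their own, 30.3% passed, and all 12 member probe sets belong to these. S100a7l2 is there only through its wild-type arrays. In that separate fit 5 member probe sets were higher and 1 was lower, since S100a4 passed too (limma adjusted p = 0.0486). The groups did not overlap for 4 member probe sets with knock-in above and 1 with knock-in below, where 13.1% and 19.6% of all probe sets were so separated. The median log2 difference was 0.20 over the member probe sets and -0.05 over all probe sets.

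**Figure D1:**
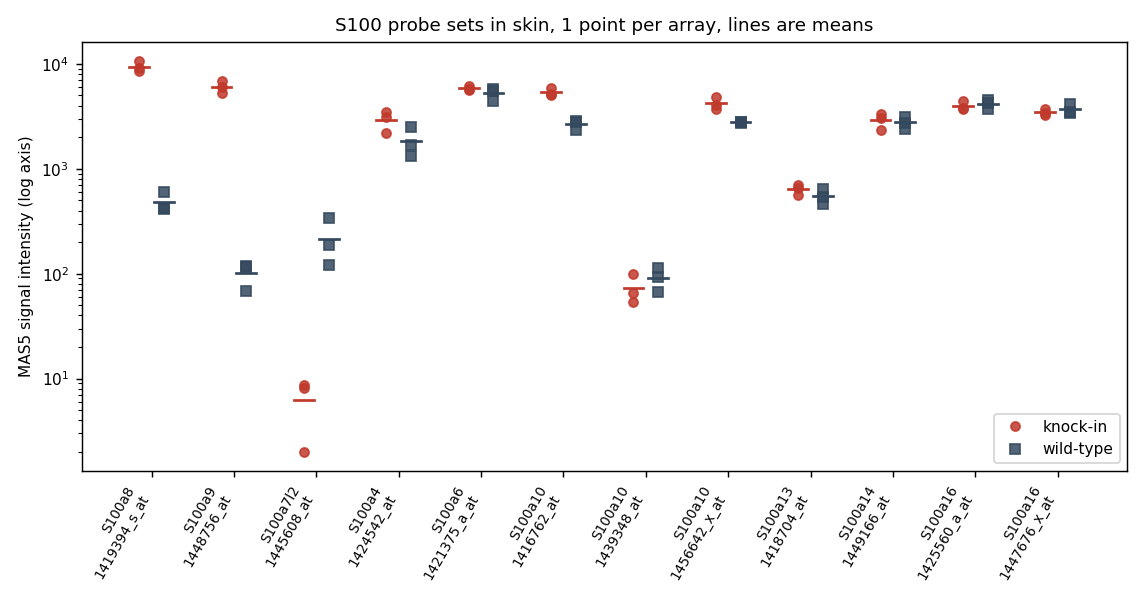
MAS5 signal intensity (log axis) of the 12 S100 probe sets, with 1 point per array, knock-in as circles left of wild-type as squares, and lines at the group means. The groups do not overlap for S100a8, S100a9, S100a7l2 and 2 of the 3 probe sets of S100a10, and they overlap for the other 7 probe sets.

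S100a8 and S100a9, the subunits of calprotectin, were far higher in knock-in skin. S100a9 (1448756_at) gave signals of 6877, 5248 and 6040 on the knock-in arrays, against 68.3, 116 and 119 on the wild-type arrays. Every knock-in array was above every wild-type array by a wide margin, and on all 6 arrays the signal was above the array's median of 37.5 to 45.7. Mean signals were 6055 ± 814 in knock-in and 101 ± 28.6 in wild-type (SD, n = 3 each), a ratio of 59.8 and a log2 difference of 5.72 ± 0.19 (SE, limma adjusted p = 2.01e-06). It was the 10th highest difference of the 45037 probe sets. S100a8 (1419394_s_at) gave 10593, 8492 and 9036 in knock-in, against 414, 421 and 599.9 in wild-type. Its means were 9374 ± 1091 and 478 ± 106 (SD, n = 3 each), a ratio of 19.6 and a log2 difference of 4.26 ± 0.15 (limma adjusted p = 3.44e-06), the 23rd highest. The coefficient of variation was 11.6% in knock-in and 22.1% in wild-type for S100a8, and 13.5% and 28.2% for S100a9. The brightest probe set of an array gave between 11701 and 15329, so S100a8 was near the top of the range in knock-in, and whether such signals are compressed was not tested.

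The log2 difference was 5.72 for S100a9 and 4.26 for S100a8. The log2 signal of S100a9 minus that of S100a8, taken within each array, was -0.62, -0.69 and -0.58 in knock-in, against -2.35, -1.73 and -2.19 in wild-type. The groups did not overlap, and the means differed by 1.46 (two-sided exact permutation p = 0.1, the smallest that 3 against 3 allows, so this test cannot pass the threshold). The part of the S100a8 signals near the top of the range in this gap was not tested. The difference lay between 1.09 and 1.64 with another offset, another scaling or 1 array left out.

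Markers of the cells that make calprotectin moved with the groups. Of 10 measured neutrophil markers, 7 were higher in knock-in and 0 lower, where 8.45% of all genes were higher by their brightest probe set and 17.5% passed in either direction. Their summed signal was 2272 to 3102 in knock-in, against 222 to 243 in wild-type. Most of the knock-in sum came from Stfa2l1 (1284 to 1348 in knock-in, 65.1 to 101 in wild-type) and Mmp8 (472 to 913 and 11.9 to 19.3). Among the neutrophil markers Cxcr2, the receptor that guides neutrophils, gave 52.4 to 117 in knock-in and 1.72 to 4.04 in wild-type. The granule gene Elane stayed dim, from 4.14 to 19.3 in knock-in and from 3.30 to 19.5 in wild-type. Of 6 macrophage markers 3 were higher and 0 lower, with sums of 10300 to 15590 against 6006 to 9165. Of 4 stress keratins, which wounded keratinocytes make, 3 were higher and Krt17 was lower, with sums of 22300 to 30670 against 8332 to 10270. Of 6 basal keratinocyte markers, Krt5, Krt14 and Itga6 were higher and Krt15 was lower, with sums of 22670 to 26990 against 18170 to 20920. The share of these cell types in the S100a8 and S100a9 signals was not tested. Without an array, 3 of these marker calls were lost at least once: Mrc1 (without knock-in replicate 1 or 3 or wild-type replicate 3), Lyz2 and Krt17 (both without knock-in replicate 1 or 3 or wild-type replicate 1 or 3). Krt17 also failed after median centring and without the variance trend (adjusted p = 0.115 and 0.0694), and Lyz2 without the trend (0.0504).

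**Figure D2:**
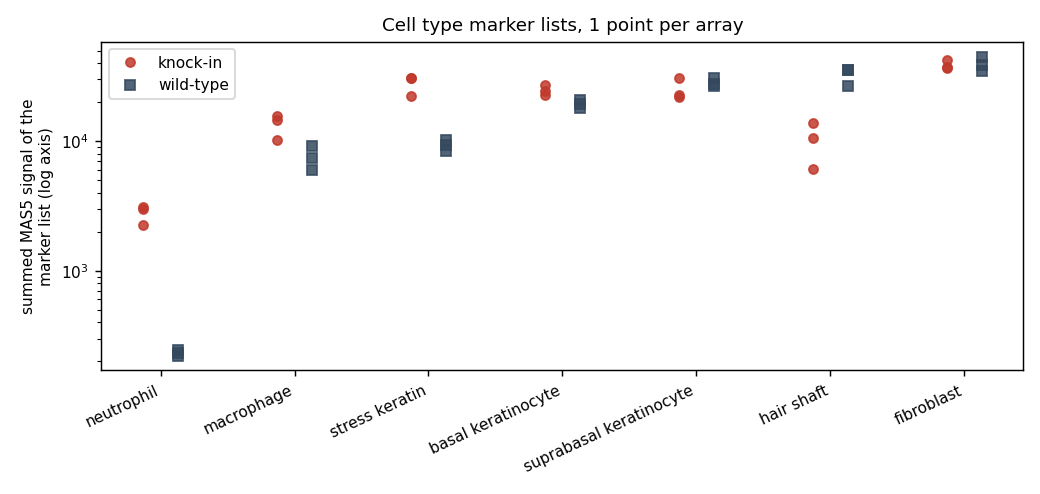
Summed MAS5 signal (log axis) of cell type marker lists, with 1 point per array, knock-in as circles left of wild-type as squares. Neutrophil sums were 2272 to 3102 in knock-in, against 222 to 243 in wild-type, and hair shaft sums were 6135 to 13690 in knock-in, against 26470 to 35650 in wild-type.

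S100a7l2, a gene named for its likeness to the psoriasin gene S100A7, was the member that was lower in knock-in. Its probe set (1445608_at) gave 2.01, 8.68 and 8.11 on the knock-in arrays, against 121, 341 and 187 on the wild-type arrays. All 3 knock-in signals were below the array's median, and all 3 wild-type signals were above it. The log2 difference was -3.28 ± 0.32 (limma adjusted p = 6.13e-04), the 14th lowest of all probe sets. Its size depends on the offset, since the knock-in signals are smaller than 16: it was -4.95 with an offset of 1 and -1.92 with 64 (adjusted p = 4.11e-04 and 0.00269). Of the members it also varied most between replicates, with a coefficient of variation of 58.9% in knock-in and 52.2% in wild-type. Hair shaft markers were also lower in knock-in (7 of 7, where 17.5% of all genes passed in either direction). Among the wild-type arrays the order differed. Replicate 2 had the highest S100a7l2 signal but the lowest hair shaft sum (26470, against 35650 and 35640 in replicates 1 and 3). The part of hair shaft cells in the fall of S100a7l2 was not tested. Of 4 T cell markers, the dim Cd3g and Cd3d were lower, Cd3e overlapped, and Thy1, which fibroblasts and other cells also make, averaged 740 ± 133 in knock-in and 500.1 ± 101 in wild-type without passing (0.56 ± 0.17, adjusted p = 0.0651). Thy1 makes up most of the summed signal of that list, which was 696 to 958 in knock-in and 567 to 749 in wild-type.

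S100a10 binds annexin A2 and holds plasminogen and its activator at the cell surface, and unlike other S100 proteins it does not need calcium for this. Its brightest probe set (1416762_at) gave 5888, 5007 and 5208 in knock-in, against 2767, 2849 and 2360 in wild-type. The groups were clearly separate, with a ratio of means of 2.02 and a log2 difference of 1.01 ± 0.11 (limma adjusted p = 9.06e-04). The second bright probe set (1456642_x_at) gave 4837, 3730 and 4067 in knock-in, against 2788, 2724 and 2821 in wild-type. It showed the same direction with a smaller log2 difference of 0.59 ± 0.11 (limma adjusted p = 0.00986). The dim one (1439348_at) gave 100.1, 53.7 and 65.6 in knock-in, against 66.8, 93.8 and 112 in wild-type, and its groups overlapped (-0.27 ± 0.23, limma adjusted p = 0.501). With the mean over the 3 probe sets the log2 difference was 0.44 (adjusted p = 0.048). The letter x in the second probe set's name marks probes that may also bind other transcripts.

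S100a4, also called fibroblast-specific protein, binds non-muscle myosin and is made by fibroblasts and several leukocytes. It gave 3448, 2192 and 3127 in knock-in, against 1677, 2511 and 1337 in wild-type (1424542_at). Wild-type replicate 2 was above knock-in replicate 2, so the groups overlapped. The log2 difference of 0.68 ± 0.24 did not pass (limma adjusted p = 0.0989). It was 0.93 without wild-type replicate 2 (adjusted p = 0.0279), and it passed with either filter on dim probe sets (0.0486 and 0.0493) and with median centring (0.0414). Fibroblast markers had overlapping sums of 36760 to 42030 in knock-in and 34890 to 44900 in wild-type. Of the 6 markers, 1 was higher (Pdgfra) and 1 lower (Col1a1), where 17.5% of all genes passed in either direction. Col1a1 failed in 5 of 6 cases with an array left out, all but wild-type replicate 1. It also failed after median centring, without the variance trend and with the mean over its probe sets. Macrophage markers had separate sums of 10300 to 15590 in knock-in and 6006 to 9165 in wild-type. Of these markers Cd163, Mrc1 and Lyz2 were higher. Cd68, Adgre1 and Csf1r overlapped between the groups and did not pass (limma adjusted p = 0.103, 0.763 and 0.861). Cd68 passed without knock-in replicate 2 (adjusted p = 0.021) and with median centring. Replicate 2 had the lowest macrophage sum in knock-in and the highest in wild-type, as for S100a4. The same held for the sums of the suprabasal keratinocyte, endothelial, T cell and skeletal muscle lists, so this order is not particular to macrophage markers. The part of fibroblasts or macrophages in the S100a4 signals was not tested.

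The other members did not pass the test. S100a6, or calcyclin, is bright in keratinocytes and fibroblasts. It gave 5631, 6105 and 5737 in knock-in, against 5480, 4458 and 5717 in wild-type (1421375_a_at, 0.17 ± 0.12, limma adjusted p = 0.405). S100a13 takes part in the release of signal proteins that lack a secretion signal. It gave 655, 567 and 708 in knock-in, against 460.2, 647 and 544 in wild-type (1418704_at, 0.23 ± 0.14, limma adjusted p = 0.328). In both genes the lowest wild-type array lay below the knock-in arrays and the highest lay among them. S100a14, a member made in epithelia, gave 3071, 3358 and 2352 in knock-in, against 3109, 2414 and 2759 in wild-type (1449166_at, 0.08 ± 0.15, limma adjusted p = 0.797). S100a16 is a widely expressed member. Its probe set 1425560_a_at gave 3680, 4473 and 3810 in knock-in, against 4508, 3694 and 4247 in wild-type (-0.06 ± 0.12, limma adjusted p = 0.801), and the second, 1447676_x_at, 3256, 3708 and 3390.1 against 4181, 3428 and 3506 (-0.10 ± 0.11, adjusted p = 0.614). For these 5 probe sets the groups overlapped, and the largest ratio of means was 1.17, that of S100a13.

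The members lie in a cluster on chromosome 3, in the order S100a13, S100a14, S100a16, S100a4, S100a6, S100a8, S100a9, S100a7l2, S100a11 and S100a10, with other genes between some of them. S100a8 and S100a9 are next to each other in the RefSeq gene table, and S100a7l2 is the 6th entry after S100a9. The 2 highest and the lowest of the member differences therefore belong to 3 S100 genes that follow each other along the chromosome. On 1 side of them no member from S100a13 to S100a6 passed, but S100a3, which lies between S100a16 and S100a4, and S100a1, which lies beyond S100a13, were lower. On the other side S100a10 was higher, but it lies much farther away. S100a11 is the 78th entry after S100a7l2, and S100a10 is the 2nd after S100a11.

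**Figure D3:**
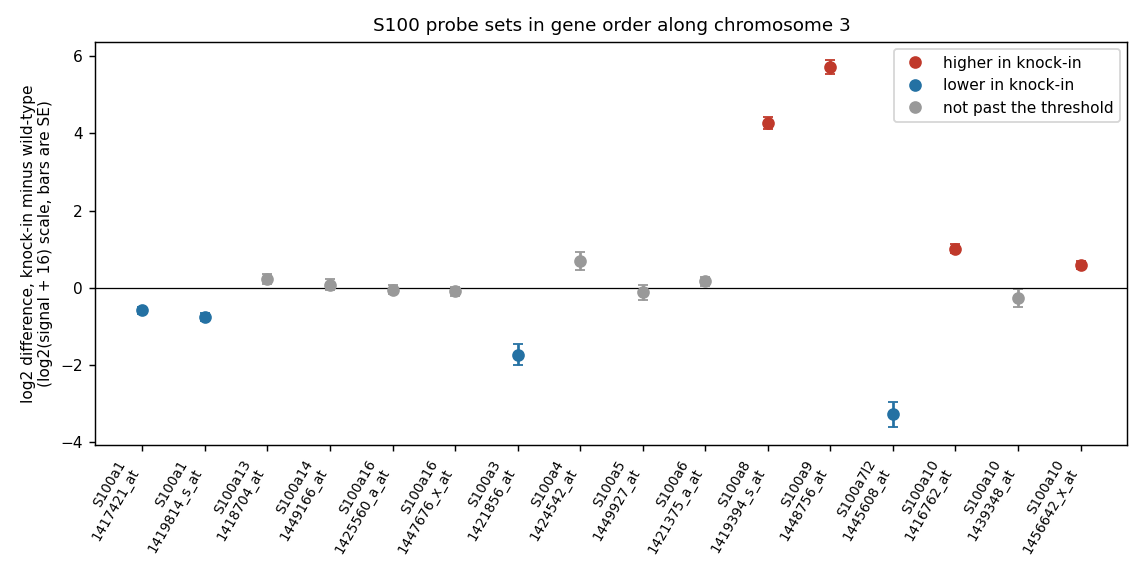
Log2 difference of mean log2(signal + 16) (knock-in minus wild-type, bars are SE) of S100 probe sets, in the order of their genes along chromosome 3, for members and other measured S100 genes of that chromosome. S100a8 and S100a9 stand at 4.26 and 5.72, with S100a7l2 at -3.28 as the next S100 gene and S100a3 at -1.74.

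Other S100 genes were read from a list of 11 genes that also holds S100pbp, the gene of a binding protein outside the family. Of the 6 with a probe set, S100pbp included, 0 were higher and 3 lower in knock-in, beside the 17.5% of all genes that passed in either direction. S100a3, a cysteine-rich protein of the hair cuticle, gave 1208, 2792 and 1829 in knock-in, against 7211, 4914 and 6576 in wild-type. The groups were separate (1421856_at, -1.74 ± 0.28, limma adjusted p = 0.00509). S100a1, best known from heart and skeletal muscle, was lower with both of its probe sets, by -0.76 ± 0.10 and -0.59 ± 0.09 (adjusted p = 0.00212 and 0.00548). S100b, a protein of glia, Schwann cells and pigment cells, averaged 21.1 ± 5.87 in knock-in and 61.8 ± 7.57 in wild-type (SD, n = 3 each), a log2 difference of -1.07 ± 0.18 (limma adjusted p = 0.00695), or -0.56 with an offset of 64, and its second probe set did not pass (-0.83 ± 0.26, adjusted p = 0.071). S100pbp had a difference of -0.12 ± 0.12 (adjusted p = 0.562). S100a5 was dim throughout, with means of 9.81 ± 3.55 in knock-in and 12.3 ± 6.44 in wild-type, as was S100g, a calcium carrier of gut and kidney, with 1.42 ± 0.0161 and 1.07 ± 0.395. Hair shaft markers had sums of 6135 to 13690 in knock-in, against 26470 to 35650 in wild-type, with 7 of 7 lower. Of 5 melanocyte markers 4 were lower, with sums of 698 to 1352 in knock-in against 1903 to 4273 in wild-type, and of 4 skeletal muscle markers 2 were lower, with sums of 14970 to 24580 against 24410 to 36230. Without knock-in replicate 1 or 3 only 2 melanocyte markers were lower, without knock-in replicate 2 or 3 or wild-type replicate 2 or 3 only 1 muscle marker was. With knock-in replicate 1 left out, 3 muscle markers were lower. The part of these cell types in the lower S100a3, S100b and S100a1 signals was not tested.

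S100-fused proteins join an S100 domain to long repeats and build the cornified layer and the hair sheath. Of 5 measured genes, 1 was higher and 2 lower, where 17.5% of all genes passed. Tchhl1 fell to 335 ± 102 in knock-in, against 1951 ± 661 in wild-type (-2.47 ± 0.29, limma adjusted p = 0.00131, n = 3 each), and trichohyalin, Tchh, which hardens the inner root sheath, to 4638 ± 669 against 8544 ± 714 (-0.89 ± 0.13, adjusted p = 0.00354). Repetin, Rptn, rose to 1005 ± 62.5 against 554 ± 69.9 (0.85 ± 0.11, adjusted p = 0.00177), and its difference was 0.11 with the mean over its 3 probe sets (adjusted p = 0.488). Hornerin, Hrnr, had a difference of 0.82 ± 0.24 just short of the threshold (adjusted p = 0.0557) and passed without wild-type replicate 1 (0.99, adjusted p = 0.0459) and under other settings, among them median centring. Filaggrin, Flg, had -0.61 ± 0.26 (adjusted p = 0.168), and -0.92 without wild-type replicate 3 (adjusted p = 0.0317).

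Of 8 genes for receptors of extracellular S100 proteins and their adaptors, 4 were higher and 0 lower. By comparison, 8.45% of all genes were higher by their brightest probe set and 17.5% passed in either direction. Among the brighter probe sets, tested on their own, 30.3% passed. Cd14, which hands ligands to Toll-like receptor 4 and is made by macrophages and other myeloid cells, gave 3473, 1923 and 3224 in knock-in, against 113, 176 and 127 in wild-type. That is a log2 difference of 4.20 ± 0.23 (1417268_at, limma adjusted p = 3.25e-05), close to that of S100a8. Its partner Ly96 had 0.57 ± 0.12 (adjusted p = 0.0151), the adaptor Myd88 0.63 ± 0.09 (0.00321) and the scavenger receptor Cd36 0.60 ± 0.16 (0.042). Without 1 array Ly96 failed in 3 of 6 cases (knock-in replicate 1 or 3 or wild-type replicate 3, adjusted p from 0.0515 to 0.0635), and Cd36 in 5 of 6, all except without wild-type replicate 2 (0.0525 to 0.146). Cd36 also failed after quantile normalization (0.0736), without the variance trend (0.0767) and with the mean over its probe sets (0.0657). Tlr4 itself did not pass (0.42 ± 0.20, adjusted p = 0.205), nor did Ager, which was dim (17.0 ± 6.54 in knock-in and 33.8 ± 3.11 in wild-type, adjusted p = 0.0789), Bsg (0.31 ± 0.10, adjusted p = 0.0818, and passing with median centring and, at 0.40 with 0.028, without wild-type replicate 1) or Nptn (-0.07 ± 0.09, adjusted p = 0.689).

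Of 12 genes for intracellular or surface partners, 4 were higher and 1 lower. Among all genes 17.5% passed in either direction, and among the brighter probe sets, tested on their own, 30.3% did. Annexin A2, Anxa2, the partner of S100a10, gave 7002, 6134 and 6636 in knock-in, against 4216, 4123 and 3989 in wild-type (0.68 ± 0.09, limma adjusted p = 0.00266). Plat, the tissue plasminogen activator that this complex binds, had 0.96 ± 0.18 (adjusted p = 0.011, and 0.052 without wild-type replicate 3). Myh9, the heavy chain of the non-muscle myosin that S100a4 binds, had 0.49 ± 0.08 (adjusted p = 0.00568). Anxa1, a partner of S100a11, had 0.51 ± 0.12 (adjusted p = 0.0266), but failed without any 1 array except knock-in replicate 3 (0.0503 to 0.0981). Syt1, part of the S100a13 release complex, was dim and had -0.74 ± 0.18 (adjusted p = 0.0269), and failed without any 1 array except knock-in replicate 3 (0.0572 to 0.0846), and after median centring (0.0563). With the mean over a gene's probe sets, Anxa2 (0.44, adjusted p = 0.208), Myh9 (0.18, adjusted p = 0.153), Anxa1 (0.21, adjusted p = 0.451) and Syt1 (-0.34, adjusted p = 0.0992) did not pass, and Plat had 0.61 (adjusted p = 0.0277).

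Of 9 transcription factors that are reported to act on S100a8 and S100a9, 5 were higher and 0 lower. Of all genes, 8.45% were higher by their brightest probe set and 17.5% passed in either direction. Under the other settings 4 to 6 of these factors were higher. Fosl1, an AP-1 subunit, had 1.67 ± 0.21 (limma adjusted p = 0.00171), Cebpd 1.21 ± 0.14 (0.00119), Stat3, which relays cytokine signals, 0.88 ± 0.09 (7.57e-04), Hif1a, the hypoxia factor, 0.87 ± 0.09 (9.49e-04) and Junb 0.54 ± 0.11 (0.017). Junb failed without knock-in replicate 1 or 2 (adjusted p = 0.068 and 0.0546). The difference of Fosl1, dim in wild-type, was 1.00 with an offset of 64, and those of Cebpd and Hif1a were 0.67 and 0.56 with the mean over their probe sets.

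**Figure D4:**
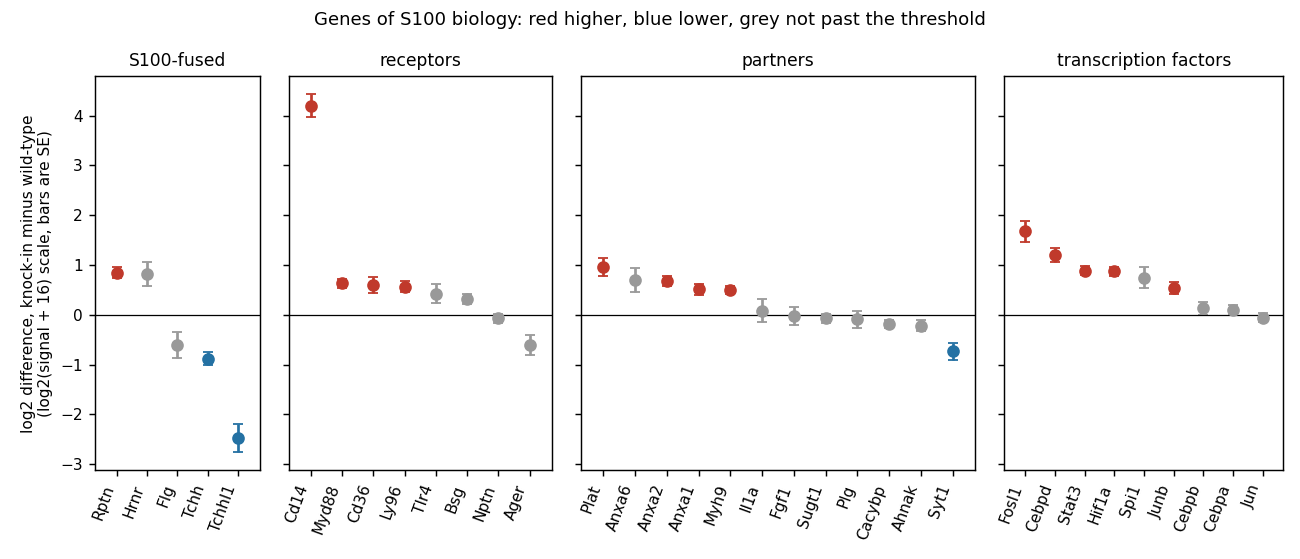
Log2 difference of mean log2(signal + 16) (knock-in minus wild-type, bars are SE) of the genes of 4 lists around the S100 family, by their brightest probe set, with red for higher, blue for lower and grey for not past the threshold. Cd14 at 4.20 stands apart from the other receptor genes, which lie between -0.61 and 0.63.

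The genes whose signal ran most like that of S100a9 over the 6 arrays, on the log2 scale, were Elf3, Iscu, Tmem252, Nfatc4 and the acute-phase gene Saa3, with Pearson's r between 0.998 and 0.999. Their log2 differences ranged from 0.29 for Iscu to 6.54 for Saa3, so likeness of pattern does not mean likeness of size. For S100a7l2 they were Serinc4, Kat6a, Mgl2, Atp6v1c2 and Ogn, with r between 0.995 and 0.996 and log2 differences from -2.27 for Mgl2 to -0.39 for Kat6a. The 6 arrays form 2 groups, so these values mostly reflect the difference between the groups: 663 of 18184 genes had an r over 0.95 with S100a9, and 430 with S100a7l2.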

How the data were processed

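Each array has 1 intensity per probe set, on a linear scale, in the deposited table. The authors made these values with MAS5, per the submitters' processing notes, and no version or setting is stated there. MAS5 scales each array by 1 factor, and the 2% trimmed mean of every array was 150. There are no detection calls. Of 45101 probe sets, 64 controls were left out. The platform annotation gives 34945 of the others 1 symbol, 932 several and 9160 none, and 34754 matched RefSeq (GRCm38.p6) by gene ID with 0 symbols changed.

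All 45037 probe sets were tested without a filter in R 4.3.3 with limma 3.58.1, on log2(signal + 16) values (lmFit, eBayes with trend, two-sided, Benjamini-Hochberg), and the procedure was tested on simulated data. The offset understates changes of dim probe sets, and 3 arrays per group limit the precision. Outside the members a gene was read by its probe set with the highest mean. Named were all member probe sets, all genes of the lists of other S100 genes, S100-fused genes and receptors, up to 5 genes with the smallest p from each other list, and 5 genes most like S100a9 and S100a7l2. Pdgfra, Col1a1 and the marker genes given with values were chosen after their values were seen. Members and lists were chosen with earlier results of these data known. Samples of equal replicate number were not paired: the correlations of their deviations from the group means were -0.24, -0.34 and -0.05.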

Additional observations from a re-analysis of the deposited data

How the results depend on the processing

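Of 219 values of member probe sets under the alternatives, 215 kept their side of the threshold and 4, all of S100a4, crossed it upward; 5 changed sign without passing. The members called numbered 4 to 5 higher and 1 lower with an array left out. Without probe sets ending in _s_at or _x_at, 2 member probe sets were higher, since that removes the S100a8 probe set and 1 of S100a10. Over all probe sets, 6224 passed, 2705 higher and 3519 lower. Leaving out 1 array gave 3169 to 5139, with 1561 to 2303 higher and 1608 to 2836 lower, the lowest without wild-type replicate 3. With 1 probe set per gene 3454 passed (1663 higher, 1791 lower), and with the mean over probe sets 3046 (1397 and 1649), where fewer features were tested. Median centring, which moved the median log2 difference to 0.09 from -0.05, gave 4103 higher and 2097 lower. With the replicate number as a block, 3406 passed, 1612 higher and 1794 lower, the members' calls were the same in number, and no array correlated best with its own number. The receptor list had 2 genes higher with that block, or without knock-in replicate 1 or 3 or wild-type replicate 3. The offset sets the size for dim probe sets: the log2 difference of Syt1 was -1.18 with an offset of 1 and -0.34 with 64.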
